A study of Zea mays with 6 samples.

Results

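Transcripts of 8 maize (Zea mays) genes of terpenoid phytoalexin synthesis were followed in seedling shoots of the wild type and of a knockout line for the G protein β subunit (Gβ), part of a complex that relays signals from receptors at the cell surface. The genes were given by identifier and not by their values, and all 8 are among the 44146 identifiers measured. They are the kauralexin genes an2 (Zm00001d029648) and kaurene synthase-like 2 (Zm00001d041082), the zealexin sesquiterpene synthases Zm00001d024207, Zm00001d024208, Zm00001d024210 and Zm00001d024211, and the cytochrome P450 genes CYP71Z16 (Zm00001d014136) and CYP71Z18 (Zm00001d014134). The names came with the list of identifiers. The deposited tables hold identifiers without names, and 0 of their identifiers matched the reference table used here.

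Phytoalexins are small antimicrobial compounds that plants make on attack by pathogens or insects. Maize makes 2 families of acidic terpenoids of this kind, the kauralexins, which are diterpenoids, and the zealexins, which are sesquiterpenoids. Kauralexin synthesis starts when an ent-copalyl diphosphate synthase closes the first rings of geranylgeranyl diphosphate and a kaurene synthase-like enzyme completes the skeleton. Zealexin synthesis starts when sesquiterpene synthases turn farnesyl diphosphate into cyclic hydrocarbons. Cytochrome P450 enzymes of the CYP71Z group then oxidise the hydrocarbons of both families. Transcripts of the pathway are known to accumulate in maize tissue after fungal infection.

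The wild type (labelled WT) and the knockout (labelled GBetaKO, with a single line, KO1, in the titles) were each represented by 3 libraries of shoots at the three-leaf stage, grown under normal conditions without treatment and harvested without roots. The design text calls the libraries biological replicates, and how many seedlings went into each is not stated. The labels also leave out the genetic background of either line and how the knockout was made, so the loss of Gβ and any other difference between these lines cannot be told apart. The Gβ transcript itself and markers of shoot tissue were not analysed here, because their identifiers carry no names. The unit is FPKM, the number of fragments per kilobase of a gene after division by a factor for the library, which allows levels of different genes to be compared per length. Whole reads could be worked back from the FPKM, and each wild-type library held 14758012 to 17042818 of them and each knockout library 16013231 to 17666150. Wild-type replicate 3 and knockout replicate 2 stood apart from the other libraries of their groups on the second principal component of all tested genes, and results are therefore also given without them. Both lay on its positive side (83.8 and 37.8), and their departures from their groups correlated at r = 0.37. For wild-type replicate 2 with knockout replicate 1 r was 0.47, and for wild-type replicate 1 with knockout replicate 3 it was 0.28. The other pairs ran from -0.37 to 0.15. Whether libraries of the 2 genotypes shared a batch was not tested.

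The question for these genes was whether their transcripts differed between untreated wild-type and knockout shoots. For 7 of the 8 genes every knockout value exceeded every wild-type value, a separation that 22.3% of the 31946 genes with any read showed. The remaining gene, CYP71Z16, had no read in any library. In the wild type none of the 8 genes reached 1 FPKM in any library, the highest single value being 0.69 FPKM for CYP71Z18 in replicate 2. In the knockout, gene means ranged from 1.25 FPKM for Zm00001d024207 to 91.4 FPKM for CYP71Z18. All 8 genes together took 17, 30 and 20 reads in wild-type replicates 1, 2 and 3, and 7916, 11609 and 7572 reads in knockout replicates 1, 2 and 3. As a share of the summed FPKM of a library this was at most 0.000161% in the wild type and 0.0398% ± 0.0105 (SD, n = 3) in the knockout. In bulk shoots, more cells with these transcripts and more transcript per cell cannot be told apart.

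**Figure D1:**
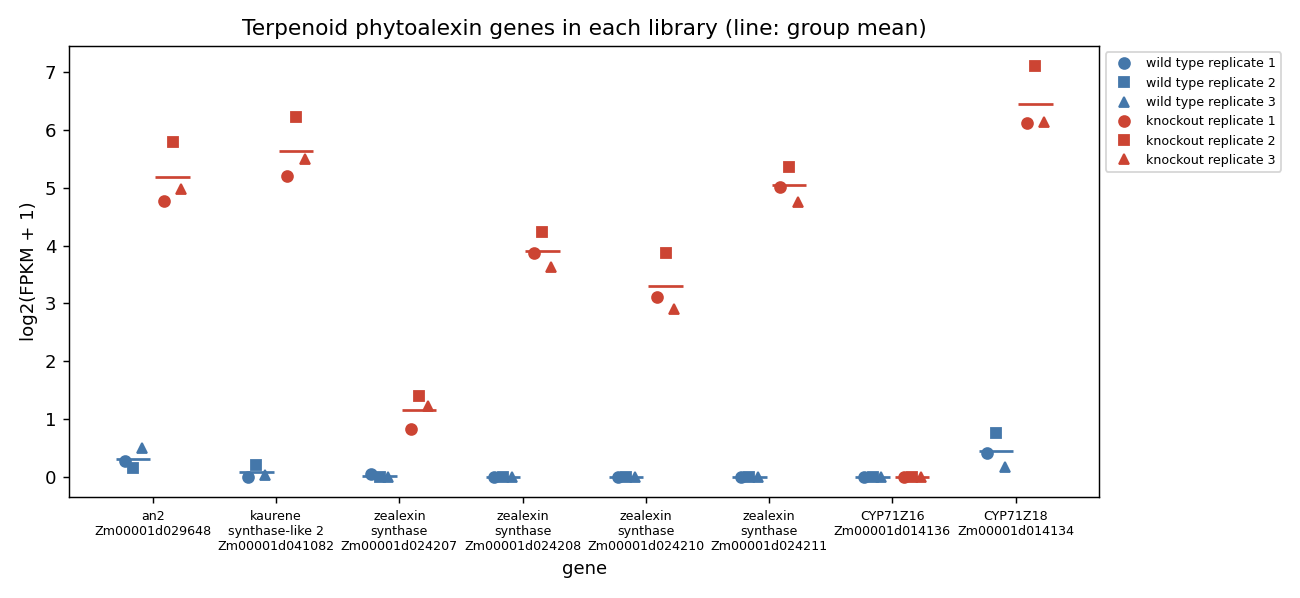
Level of each of the 8 genes on the log2(FPKM + 1) scale, with 1 point per library (blue for wild type, red for knockout, marker shape for replicate) and a line at the group mean. The 7 detected genes are higher in all 3 knockout libraries than in all 3 wild-type libraries, and CYP71Z16 lies at 0 in all 6.

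Changes were tested with limma on log2(FPKM + 1) over the 23232 genes that reached 1 FPKM in at least 3 libraries, and a gene was called at a Benjamini-Hochberg adjusted p below 0.05. The added 1 makes the fold of a gene near 0 look smaller than it is. Of the 8 genes 6 passed the filter, and CYP71Z16 and Zm00001d024207 did not. All 6 passed through the knockout libraries alone and so had to be higher there. Their joint count, their median and the shares of all tested genes set beside them are therefore given as a description only. All 6 were called as rising, at a background of 15.2% of tested genes called as rising and 31.2% called in either direction. Their median log2 fold change was 4.96, beside 0.02 over all tested genes. A called rise of at least 3 on the log2 scale was found for 1.76% of tested genes and for each of these 6. Every knockout library lay above every wild-type library in 25.0% of tested genes. Without the filter, over 31946 genes of which 11.7% were called as rising, limma also called these 6 as rising. Their adjusted p in that fit ran from 0.000181 for Zm00001d024211 to 0.00112 for Zm00001d024210. The background varied with the fit, while the 6 genes were called in each of the following fits. It was higher with library weights, at 14976 calls, and without wild-type replicate 3 and knockout replicate 2, at 11952. The 7238 calls over all genes became 4639 when wild-type replicate 1 was left out, 4650 when knockout replicate 1 was and 4212 when knockout replicate 3 was. With a pseudocount of 5 in place of 1 the log2 fold changes of the 6 genes ranged from 1.48 to 4.09, and with 0.1 from 6.48 to 8.38.

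**Figure D2:**
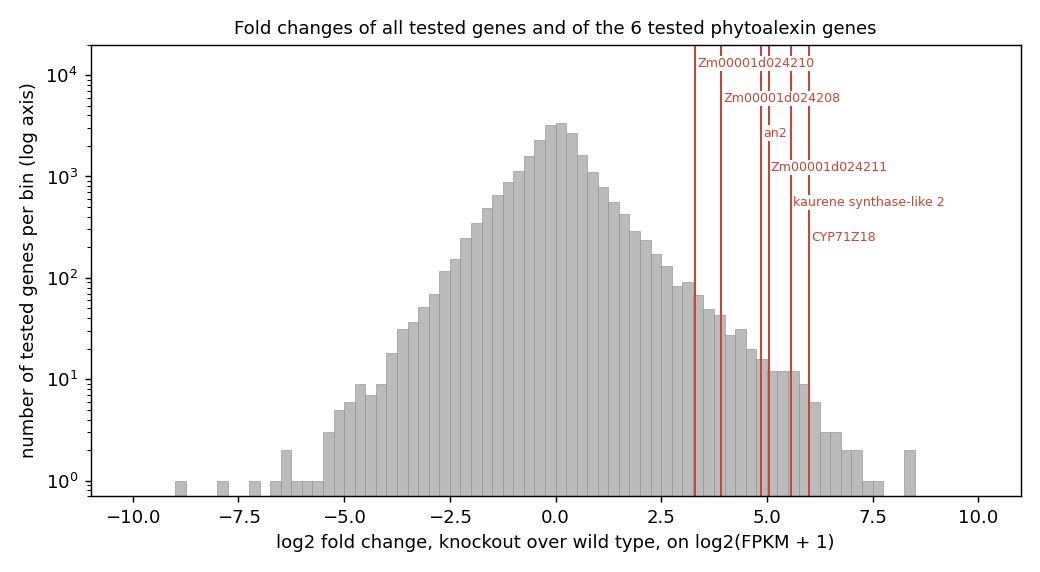
Number of tested genes (log axis) by log2 fold change of knockout over wild type on log2(FPKM + 1), in bins of 0.25, with red lines at the 6 tested phytoalexin genes. These lie between 3.30 for Zm00001d024210 and 6.0 for CYP71Z18, in the right tail of a distribution whose median is 0.02.

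The committed step of kauralexin synthesis is catalysed by an2, an ent-copalyl diphosphate synthase whose close relative an1 serves gibberellin synthesis. In the wild type an2 stood at 0.201, 0.115 and 0.42 FPKM in replicates 1, 2 and 3. In the knockout it stood at 26.2, 54.5 and 30.4 FPKM. The groups were far apart, with knockout replicate 2 the highest library. The means were 0.245 ± 0.157 and 37.1 ± 15.3 FPKM (SD, n = 3 each), and an2 rose by 4.87 ± 0.29 on the log2 scale (SE, limma adjusted p = 0.000242). The wild-type values rest on 29 reads in all, against 5387 in the knockout, a 150-fold difference after scaling with a 95% counting interval (exact binomial) of 104 to 225. Intervals and floors on reads cover counting error only and leave out the spread between replicates.

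Kaurene synthase-like 2 acts on the product of an2 and makes the diterpene hydrocarbon that is then oxidised. It had no read in wild-type replicate 1, and stood at 0.156 and 0.0253 FPKM in replicates 2 and 3. In the knockout it stood at 35.8, 73.8 and 44.4 FPKM, with the same order of libraries as an2. The means were 0.0605 ± 0.0837 and 51.3 ± 19.9 FPKM (SD, n = 3 each), and the rise was 5.56 ± 0.28 on the log2 scale (SE, limma adjusted p = 0.000134). Its reads numbered 8 in the wild type and 7726 in the knockout, which gave a ratio of 781 with a counting interval of 396 to 1809. Within the knockout libraries an2 stood at 0.734, 0.739 and 0.686 times the level of kaurene synthase-like 2, a mean of 0.72 ± 0.03 (SD, n = 3). The level of the pair differed between knockout libraries by more than this ratio did. In the wild type the ratio rests on too few reads to be compared.

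The zealexin synthases make the bisabolene and macrocarpene skeletons from which zealexins derive. Their identifiers lie within 5 consecutive numbers, and the number between them, Zm00001d024209, had no read in any library. The most abundant was Zm00001d024211, with no read in any wild-type library and 31.2, 40.3 and 25.9 FPKM in knockout replicates 1, 2 and 3. Its knockout mean was 32.5 ± 7.28 FPKM (SD, n = 3), and its log2 rise 5.04 ± 0.20 (SE, limma adjusted p = 8.28e-05). With the wild type set to a floor of 3 reads for the whole group, its 3369 knockout reads made it at least 908-fold higher. The knockout libraries held 1215, 1237 and 917 of these reads, and none was at or near the floor.

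Zm00001d024208 also had no read in the wild type, and stood at 13.7, 17.9 and 11.3 FPKM in the knockout libraries, a mean of 14.3 ± 3.30 FPKM (SD, n = 3). Its log2 fold change was 3.91 ± 0.21 (SE, limma adjusted p = 0.000139), and against the same floor it was at least 411-fold higher. Zm00001d024210 had no read in the wild type either, and stood at 7.65, 13.7 and 6.51 FPKM, a mean of 9.29 ± 3.87 FPKM (SD, n = 3). Its log2 fold change was 3.30 ± 0.28 (SE, limma adjusted p = 0.000637), and it was at least 262-fold higher. These 3 synthases had no wild-type read but at least 10 reads in each knockout library, a pattern found in 0.433% of all 44146 identifiers.

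The fourth, Zm00001d024207, was the weakest of the detected genes. It had 1 read in wild-type replicate 1, none in replicates 2 and 3, and 31, 52 and 49 reads in the knockout libraries, or 0.773, 1.65 and 1.34 FPKM. The groups did not overlap, and the ratio of reads was 107 with a wide counting interval of 18.8 to 4247. Without the filter on low values, where 31946 genes were tested, 11.7% were called as rising and 22.9% in either direction. In that fit its log2 fold change was 1.14 ± 0.16 (SE, limma adjusted p = 0.00587).

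Among the 4 synthases the make-up was similar from one knockout library to the next. Zm00001d024211 held 58.5%, 54.8% and 57.4% of their summed FPKM in knockout replicates 1, 2 and 3. Zm00001d024208 held 25.7%, 24.3% and 25.1%. The share of Zm00001d024210 was 14.3% and 14.4% in replicates 1 and 3 and 18.6% in replicate 2. Zm00001d024207 held 1.45% to 2.98%. The order of the 4 synthases was therefore the same in each library, and no neighbours in this order changed places. The gene lengths worked back from the values were 1977 to 2036 bases, so the 4 genes are of nearly equal size. The sequences were not compared here, and if these genes are near-identical copies the reads of one could be counted for another, which makes the split between them uncertain. Their sum, 57.3 ± 14.6 FPKM (SD, n = 3), depends little on such a split, provided that no shared read was dropped, counted again or given to another gene. How shared reads were handled is not given in the sources used here.

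**Figure D3:**
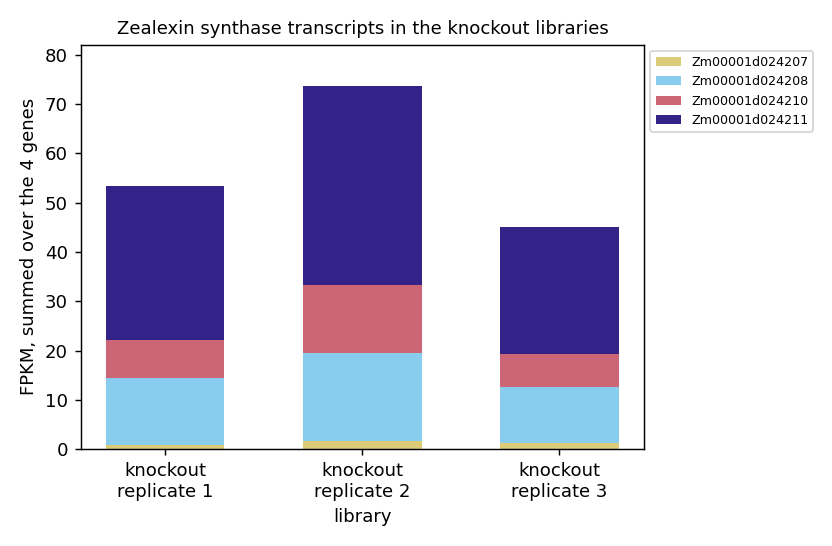
Summed FPKM of the 4 zealexin synthases in each knockout library, stacked by gene. Zm00001d024211 forms the largest part in every library (54.8% to 58.5%) and Zm00001d024207 the smallest (1.45% to 2.98%); in the wild-type libraries, which are not drawn, the 4 genes had 1 read in all.

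CYP71Z18 and CYP71Z16 encode related P450 enzymes that oxidise both zealexin and kauralexin precursors. CYP71Z18 was the most abundant of the 8 genes in the knockout. It stood at 0.334, 0.691 and 0.131 FPKM in the wild-type libraries and at 68.8, 136 and 69.1 FPKM in the knockout libraries. The means were 0.385 ± 0.283 and 91.4 ± 38.8 FPKM (SD, n = 3 each), and the rise was 6.0 ± 0.31 on the log2 scale (SE, limma adjusted p = 0.000146). Its 29 wild-type and 7988 knockout reads gave a ratio of 223 with a counting interval of 155 to 333. The order of the fold changes among the genes depends on how values near 0 are treated, and by the ratio of reads kaurene synthase-like 2 (781) was above CYP71Z18. The knockout level of CYP71Z18 lay at the 96.7th percentile of genes above 0 FPKM in the knockout.

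CYP71Z16 had 0 reads in all 6 libraries. A count of 0 allows up to 3 reads in a library, which is 0.17 to 0.203 reads in 1000000, so a lower level was not detectable at this depth, and no difference between the genotypes can be given. Its identifier lies 2 numbers from that of CYP71Z18. In the RefSeq table of assembly Zm-B73-REFERENCE-NAM-5.0 the genes with these names as synonyms are both on chromosome 5, with 1 gene starting between them. Whether reads of CYP71Z16 were lost or counted for CYP71Z18 because of shared sequence was not tested.

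In the knockout the levels of the detected genes ran from CYP71Z18 through kaurene synthase-like 2, an2, Zm00001d024211, Zm00001d024208 and Zm00001d024210 to Zm00001d024207. The ranges of neighbours over the 3 libraries overlapped for kaurene synthase-like 2 and an2 (35.8 to 73.8 and 26.2 to 54.5 FPKM), for CYP71Z18 and kaurene synthase-like 2, for an2 and Zm00001d024211, and for Zm00001d024208 and Zm00001d024210. They did not overlap between Zm00001d024211 and Zm00001d024208, or between Zm00001d024210 and Zm00001d024207. Within a library, however, CYP71Z18 was above kaurene synthase-like 2 and this was above an2 in each of the 3 knockout libraries. CYP71Z18 stood at 1.78 ± 0.19 times kaurene synthase-like 2 and at 1.56 ± 0.28 times the sum of the 4 zealexin synthases (SD, n = 3 each).

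All 7 detected genes had their highest level in knockout replicate 2, one of the libraries that stood apart. Its excess over the mean of knockout replicates 1 and 3 was 1.84-fold to 1.98-fold for an2, kaurene synthase-like 2, Zm00001d024210 and CYP71Z18. It was 1.41-fold for Zm00001d024211, 1.43-fold for Zm00001d024208 and 1.55-fold for Zm00001d024207. Over all tested genes this ratio had a median of 1.02 and a range from the 10th to the 90th percentile of 0.581 to 1.94. Among the 408 genes called with a rise of at least 3 on the log2 scale the median was 1.32, and 45.1% lay above the lowest of the 7. Between knockout replicates 1 and 3 there was no common direction. Replicate 3 stood at 1.16 and 1.24 times replicate 1 for an2 and kaurene synthase-like 2, at 1.01 times for CYP71Z18 and at 0.827 to 0.852 times for the 3 more abundant zealexin synthases. Zm00001d024207 stood at 1.74 times replicate 1 in replicate 3, on only 31 and 49 reads.

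**Figure D4:**
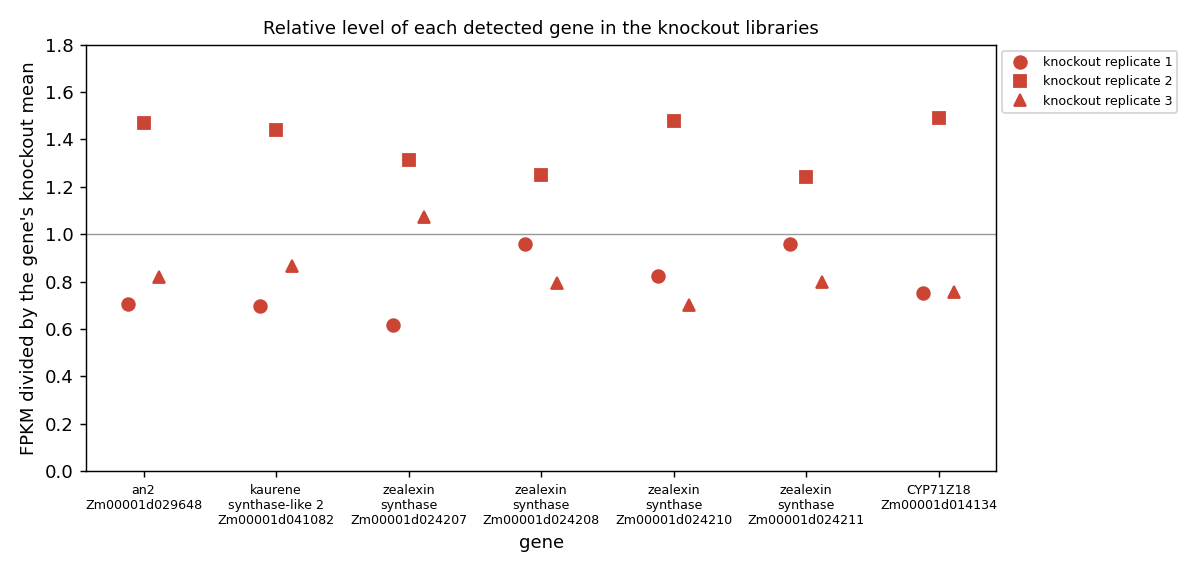
FPKM of each detected gene in the 3 knockout libraries, divided by the mean of that gene over the 3 libraries (line at 1). Replicate 2 is the highest library for all 7 genes, at 1.41 to 1.98 times the mean of the other libraries.

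Without knockout replicate 2 and wild-type replicate 3, the log2 fold changes were 4.66 for an2, 5.25 for kaurene synthase-like 2, 3.75 for Zm00001d024208, 3.01 for Zm00001d024210, 4.88 for Zm00001d024211 and 5.54 for CYP71Z18. All 6 were called by limma in the 4 remaining libraries (highest adjusted p = 0.000167). There 25.4% of all tested genes were called as rising and 51.4% in either direction, so a call is more common in this fit than in that of 6 libraries. The libraries left out were chosen for standing apart in these same data, which tends to lower the spread within groups. The p-values of this fit therefore add no independent support. For Zm00001d024207, tested without the filter, the log2 fold change in these libraries was 1.0 (limma adjusted p = 0.0207), at a background of 18.3% of genes called as rising and 35.9% in either direction.

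Genes with neighbouring identifiers were examined because identifier numbers in this annotation largely run in chromosomal order. Within 10 numbers of the 8 genes lay 64 other measured identifiers, of which 37 passed the filter. Of these 37, 6 rose and 4 fell, 27.0% in all, near the 31.2% of all tested genes. Their log2 fold changes ranged from -2.12 to 1.32 with a median of 0.17, and none reached a size of 3. Each of the 6 tested phytoalexin genes had a larger change than every tested neighbour. These 6 passed the filter through the knockout libraries alone and so had to be higher there, which makes this a description only. Zm00001d024207, which did not pass, had a log2 fold change of 1.14 in the fit without the filter. This lies within the range of the neighbours, but at a knockout mean of 1.25 FPKM the added 1 keeps the value small. By reads its ratio was 107 (counting interval 18.8 to 4247), so its log2 fold change cannot be set against those of more abundant neighbours. Around the zealexin synthases 8 neighbours were tested, of which 1 rose and 1 fell (25.0% called), with a median of -0.04. Around the CYP71Z pair 11 were tested, of which 3 rose and 2 fell, with a median of 0.15. The share called there, 45.5%, was above that of all tested genes, on few genes. It was 22.2% around an2 and 11.1% around kaurene synthase-like 2, with 9 neighbours tested at each.

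**Figure D5:**
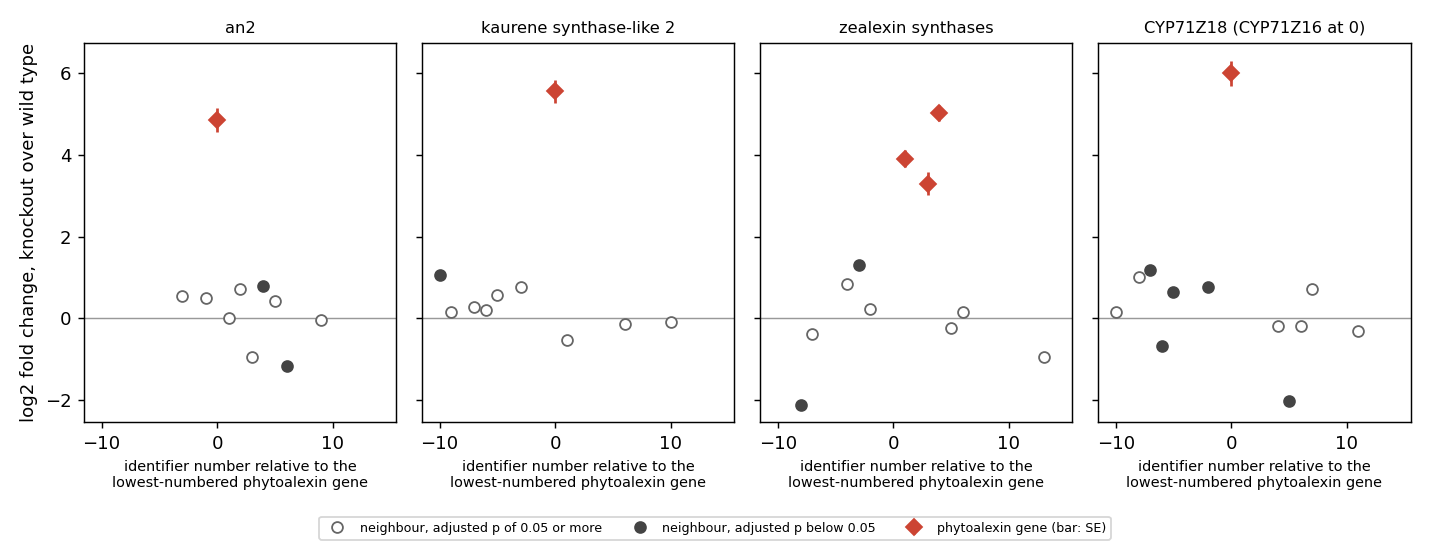
Log2 fold change of knockout over wild type for tested genes within 10 identifier numbers of the phytoalexin genes (red, with SE), plotted by identifier number relative to the lowest-numbered phytoalexin gene of each panel. The red points lie at 3.30 to 6.0, and the neighbours, filled where called, lie between -2.12 and 1.32.

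Across the 6 libraries the tested phytoalexin genes were highly correlated, although among the knockout libraries their relative levels differed as given above. The log2(FPKM + 1) values of the other 5 correlated with those of an2 at Pearson r of 0.995 to 0.998. This is a description over 6 libraries that fall into 2 genotypes, and any gene that differs strongly between the genotypes scores high, as 375 of 23226 other tested genes had an r above 0.99 with an2. The most like an2 was Zm00001d049704 (r = 0.9998), at 0.0506 ± 0.0513 FPKM in the wild type and 5.37 ± 1.47 FPKM in the knockout (SD, n = 3 each). The most like the mean profile of the 3 tested zealexin synthases was Zm00001d047192 (r = 0.9999). It was listed at 0 in all wild-type libraries, and stood at 7.67, 10.9 and 7.08 FPKM in knockout replicates 1, 2 and 3. Neither of these identifiers is paired with a name in the deposited tables.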

How the data were processed

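The authors deposited, for each of the 6 libraries, FPKM values per gene identifier. Reads of 150 bp in pairs are given in the design text, and TopHat2, Cufflinks, Cuffdiff and the build B73 RefGen_v4 in the submitters' processing notes, with versions, filters and strandedness not given in the sources used here. No header names the unit, which was taken from those notes and the values. Reads and lengths per gene were worked back as the smallest whole length that makes all 6 read numbers whole (within 0.01 of a read). Such a length was found for all 31946 genes above 0, but a gene whose reads and length share a factor gets too few. The method was checked on tables simulated from the reads and lengths it had returned. That check cannot show that the length found for each real gene is right. The planned test was limma 3.58.1 in R 4.3.3 (trend, robust, two-sided) on log2(FPKM + 1), adjusted over all tested genes. Read ratios and the fold floors were scaled by the library totals behind the FPKM, and the floor per library for CYP71Z16 by the recovered reads. Python 3.11.15, numpy 2.4.6, pandas 2.3.3, scipy 1.17.1 and matplotlib 3.10.9 were used.

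All 8 members are named, and the 2 genes most like an2 and like the zealexin synthases were to be named as well; only the first of each is given, since the identifiers carry no names. Members, lists and tests were chosen with earlier results of these data known. Other pathway genes by product name were not analysed here because no identifier matched the reference table. If the replicates were not grown separately, p-values measure a spread that may be technical. Alternatives covered the pseudocount, filter, scaling, variance model, weights, replicate block, voom and left-out libraries.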

Additional observations from a re-analysis of the deposited data

How the results depend on the processing

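The 6 tested phytoalexin genes were called as rising by limma in every alternative run, 18 for each and 17 for Zm00001d024210, whose mean over all libraries lay below the 5 FPKM asked for in a stricter filter. Their groups do not overlap, so leaving out libraries could not turn a direction. Their highest adjusted p was 0.00608, for Zm00001d024210 with a replicate block. Over all alternatives the log2 fold changes ran from 2.95 to 7.48 for an2, 3.42 to 10.38 for kaurene synthase-like 2, 1.94 to 9.89 for Zm00001d024208, 1.48 to 9.21 for Zm00001d024210, 2.89 to 11.03 for Zm00001d024211 and 4.09 to 8.24 for CYP71Z18. The low ends came from a pseudocount of 5 and the high ends from voom on the recovered reads; both depend on how values near 0 are treated and neither bounds the fold. Zm00001d024207 was tested without the filter, and 9 alternatives for it were chosen after seeing the data (pseudocount, block and left-out libraries; other scalings, weights and voom were not run for it); its log2 fold change ran from 1.0 to 3.56 and its adjusted p reached 0.0333.

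The number of genes called over the whole table moved more. It was 7238 as reported, 14976 with library weights, 4579 with the replicate block, 11952 without wild-type replicate 3 and knockout replicate 2, and 4212 to 8614 with each library left out; the cause was not tested. Same-number libraries did not depart from their groups together (r of 0.15, -0.37 and -0.20 for numbers 1, 2 and 3). Some of different numbers did (r up to 0.47). The block lost no call among the 7 detected phytoalexin genes. The planned tests of a ratio between genes could not be made for CYP71Z18 over CYP71Z16, which had no reads, nor for an2 over kaurene synthase-like 2, which had none in wild-type replicate 1. In place of the latter, the difference of their log2(FPKM + 1) values was 0.23 ± 0.26 in the wild type and -0.46 ± 0.06 in the knockout (SD, n = 3 each). An exact permutation test, two-sided, gave p = 0.1, which 3 libraries against 3 cannot go below. In the wild type both genes lay below 1 FPKM, where the added 1 makes this difference small whatever the ratio. The test therefore cannot show whether the ratio itself differed between the genotypes. The wild-type ratio was 0.74 in replicate 2 and 16.6 in replicate 3, on few reads. The knockout ratio of an2 to kaurene synthase-like 2 was 0.71 to 0.737 with each knockout library left out. In the wild type, depth limits every level: no gene of the 8 had more than 29 reads over the 3 libraries.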
